A study of Sus scrofa with 6 samples.

Results

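TIMP1, TIMP2 and TIMP3 encode tissue inhibitors of metalloproteinases, small secreted proteins that bind and block the enzymes that cut the extracellular matrix. They were measured in pig aortic valve leaflets under raised cyclic pressure. All probe sets of the microarray were taken whose platform annotation gave exactly 1 gene symbol and that symbol was TIMP1, TIMP2 or TIMP3. This gave 3 of the 6765 annotated genes and 6 of 23999 probe sets. TIMP1 had 1 probe set (Ssc.11784.1.S1_at). The others are called here, in order of mean signal, TIMP2a (Ssc.1082.1.S1_at), TIMP2b (Ssc.11257.1.S1_at), TIMP3a (Ssc.9661.1.S1_at), TIMP3b (Ssc.16028.1.S1_at) and TIMP3c (Ssc.16028.1.A1_at). The comparison set 3 arrays of leaflets under hypertensive pressure, cycling between 0 and 120 mmHg, against 3 arrays of leaflets under normotensive pressure, cycling between 0 and 80 mmHg. In both groups the pressure was applied for 24 h at 1 Hz, and the leaflets came from adult female pigs. They had been treated with collagenase II to remove the endothelium, kept overnight in medium with serum, and pressurised in culture plates, per the labels. The labels describe the samples as biological replicates but do not say whether they came from separate animals, so errors measure the spread between these samples and may be technical in part.

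TIMPs share an amino-terminal domain that wedges into the catalytic cleft of matrix metalloproteinases (MMPs). TIMP1 is the family member most readily induced by cytokines and growth factors, TIMP2 is expressed more constantly and also takes part with MMP14 in activating the proenzyme of MMP2, and TIMP3 stays bound to the matrix and in addition blocks ADAM and ADAMTS proteases. In heart valves, interstitial cells make both the enzymes and the inhibitors, and their balance is studied as a determinant of how the leaflet matrix is turned over.

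Values are signal intensities per probe set on a linear scale, made with the authors' MAS5 processing. They are compared for 1 probe set at a time, except in ratios between probe sets and in summed marker signals. A difference is the mean log2 signal of the hypertensive arrays minus that of the normotensive arrays, with the standard error (SE) of a limma fit to all probe sets kept, and a fold is that difference turned back to the linear scale. Probe sets were kept when their mean log2 signal reached the 40th percentile, a signal of 48.5, and 5 of the 6 TIMP probe sets passed. The family was chosen by its log2 differences between these same groups, so the TIMP differences are a description with no test. By limma with Benjamini-Hochberg adjustment, 0 of 14399 kept probe sets (0%) reached an adjusted p of 0.05. Without adjustment, p was under 0.05 in 2436 of them (16.9%). In the same fit without hypertensive replicate 2, 3513 (24.4%) reached an adjusted p of 0.05. Hypertensive replicate 2 resembled the normotensive arrays more than the other hypertensive arrays did, with a mean correlation of 0.950 with them across kept probe sets, against 0.817 for replicate 1 and 0.895 for replicate 3. The valve interstitial label was checked on 12 marker genes, of which 11 were on the array and 10 were kept, among them VIM, DCN, LUM, POSTN and PDGFRB, while S100A4 was below the filter.

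TIMP1 had higher signal on every hypertensive array than on any normotensive one, about double on average. Its probe set read 24805, 15176 and 12269 on hypertensive replicates 1, 2 and 3, against 9243, 8241 and 7647 on normotensive replicates 1, 2 and 3. The groups did not overlap, and replicate 1 stood well above the other hypertensive arrays. The means were 17417 ± 6562 under hypertensive and 8377 ± 807 under normotensive pressure (SD, n = 3 each). The log2 difference was 1.00 (SE 0.25), a fold of 1.99. Of all kept probe sets, 5.85% had a larger difference. Since the family was chosen by these differences, such a place among probe sets is a description only. The hypertensive SD on the log2 scale was 0.52 and the normotensive SD 0.14, where the 1000 kept probe sets of nearest mean signal had median SDs of 0.31 under hypertensive and 0.13 under normotensive pressure. On hypertensive replicate 1 the TIMP1 signal lay near the top of the array's range, with 14 probe sets at or above it. In whole leaflets a difference in signal may come from more or fewer cells of a type or from more or less RNA per cell, and these cannot be told apart.

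**Figure D1:**
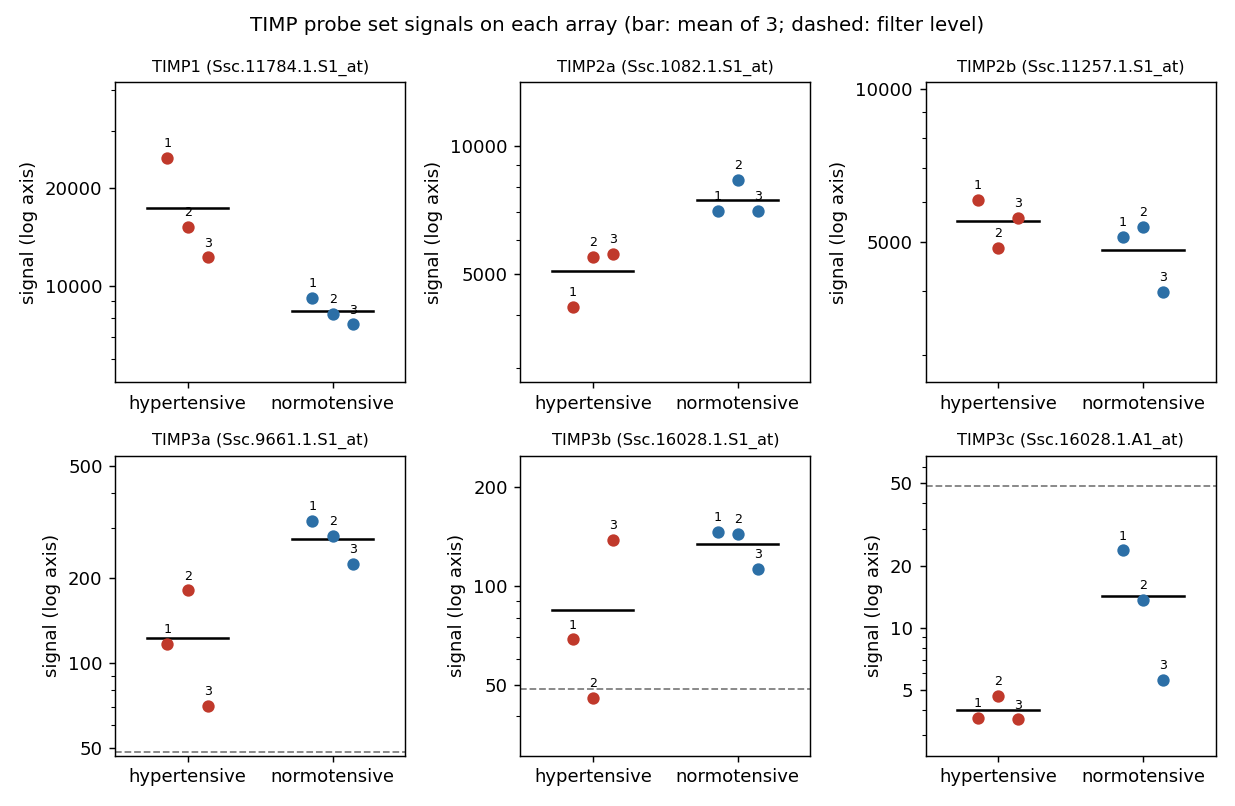
Signal (log axis) of each of the 6 TIMP probe sets on the 3 hypertensive arrays (red, left) and the 3 normotensive arrays (blue, right), with the replicate number beside each point, the mean of 3 as a bar and the filter level of 48.5 as a dashed line where it falls in range. TIMP1 was higher on all hypertensive arrays, TIMP2 gave opposite signs on its 2 probe sets, which were both lower with arrays shifted to equal spike-in signal, and TIMP3a was lower on all hypertensive arrays.

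The 2 probe sets of TIMP2, the inhibitor that partners MMP14, gave differences of opposite sign as deposited. TIMP2a read 4169, 5486 and 5558 on hypertensive replicates 1, 2 and 3, against 7033, 8308 and 7026 on the normotensive ones. All hypertensive arrays lay below all normotensive arrays, and replicate 1 was the lowest. The means were 5071 ± 782 under hypertensive and 7456 ± 738 under normotensive pressure (SD, n = 3 each), with a log2 difference of -0.56 (SE 0.19) and a fold of 0.677. A more negative difference was seen in 21.6% of kept probe sets. TIMP2b read 6054, 4872 and 5575 on hypertensive replicates 1, 2 and 3, against 5116, 5362 and 3987 on the normotensive ones. Here the groups overlapped, with normotensive replicate 3 the lowest of the 6 arrays and hypertensive replicate 1 the highest. The log2 difference was 0.20 (SE 0.20), of the same size as its error, and 34.1% of kept probe sets had a larger one. As deposited, the probe sets therefore give no common direction for TIMP2, and the sign of TIMP2b depends on how the arrays are scaled. The sources used here do not say which transcript form or strand each probe set reads.

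The disagreement between the TIMP2 probe sets was larger than the spread between normotensive arrays. The log2 ratio of TIMP2a to TIMP2b, less its normotensive mean, was -1.17, -0.46 and -0.64 on hypertensive replicates 1, 2 and 3, against -0.18, -0.0043 and 0.18 on the normotensive ones. Any factor common to a whole array cancels in this ratio. Both probe sets varied less among hypertensive arrays than was usual at their signal, with log2 SDs of 0.23 and 0.16 against medians of 0.36 and 0.38 for the 1000 nearest kept probe sets. Among normotensive arrays TIMP2a had an SD of 0.139 against a median of 0.146, and TIMP2b varied more than usual, at 0.230 against 0.154.

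TIMP3, the matrix-bound inhibitor of MMPs and of ADAM17, had lower signal under hypertensive pressure on its brightest probe set. This one, TIMP3a, read 116, 181 and 70.4 on hypertensive replicates 1, 2 and 3, against 318, 283 and 225 on the normotensive ones. The groups did not overlap, and replicate 3 was the lowest. The means were 122 ± 55.4 under hypertensive and 275 ± 47.2 under normotensive pressure (SD, n = 3 each), with a log2 difference of -1.26 (SE 0.39) and a fold of 0.418. Of kept probe sets, 5.40% had a more negative difference. TIMP3b, a further TIMP3 probe set, read 68.7, 45.6 and 138 on hypertensive replicates 1, 2 and 3, against 146, 144 and 112 on the normotensive ones. Its groups overlapped, because hypertensive replicate 3 sat inside the normotensive range, and replicate 2 was just below the filter level. The log2 difference was -0.82 (SE 0.44), and 12.9% of kept probe sets had a more negative one.

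The TIMP3 probe sets had the same sign on average and yet ordered the hypertensive arrays differently. Their log2 ratio, TIMP3a over TIMP3b less its normotensive mean, was -0.27, 0.95 and -2.01 on hypertensive replicates 1, 2 and 3, against 0.091, -0.058 and -0.033 on the normotensive ones. The SD of this ratio was 1.49 under hypertensive and 0.080 under normotensive pressure. Among hypertensive arrays TIMP3a and TIMP3b varied more than usual at their signal, with log2 SDs of 0.68 and 0.81 against medians of 0.51 and 0.52. Among normotensive arrays they were at 0.26 and 0.21 against 0.28 and 0.30. The lower TIMP3 signal is thus seen on replicates 1 and 2 with both kept probe sets and on replicate 3 with TIMP3a but not TIMP3b. The third TIMP3 probe set, TIMP3c, was below the filter level on every array, at 3.66, 4.65 and 3.59 on the hypertensive and 23.7, 13.6 and 5.55 on the normotensive arrays, and no fold is given for it. TIMP4, the remaining family member, was also below the filter level on all arrays, with its 2 probe sets between 1.69 and 32.4 under hypertensive and between 1.57 and 15.9 under normotensive pressure.

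Among the 5 kept TIMP probe sets, 1 had non-overlapping groups with hypertensive arrays higher, where 10.4% of all kept probe sets did, and 2 had non-overlapping groups with hypertensive arrays lower, where 12% did. In either direction, 22.5% of kept probe sets had such groups. Leaving out any single array moved the folds of the 5 by at most 1.352 times (TIMP3b, without hypertensive replicate 3), and each kept its sign.

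How the arrays are scaled bears on the size of these differences. The mean log2 signal of 9 hybridisation spike-in probe sets, for bacterial and phage transcripts added to every hybridisation, was 11.03, 10.94 and 10.57 on hypertensive replicates 1, 2 and 3, against 9.73, 10.31 and 10.58 on the normotensive ones, a difference of 0.64. With each array shifted to equal spike-in signal, an alternative chosen after the data were seen, the median difference of all kept probe sets was -0.68. The TIMP1 difference was then 0.35 (SE 0.39), that of TIMP2a was -1.21 (SE 0.44) and that of TIMP3a was -1.90 (SE 0.56). TIMP2b turned to -0.45 (SE 0.45). The unequal change between family members is the same under either scaling, since it is a ratio within an array.

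**Figure D2:**
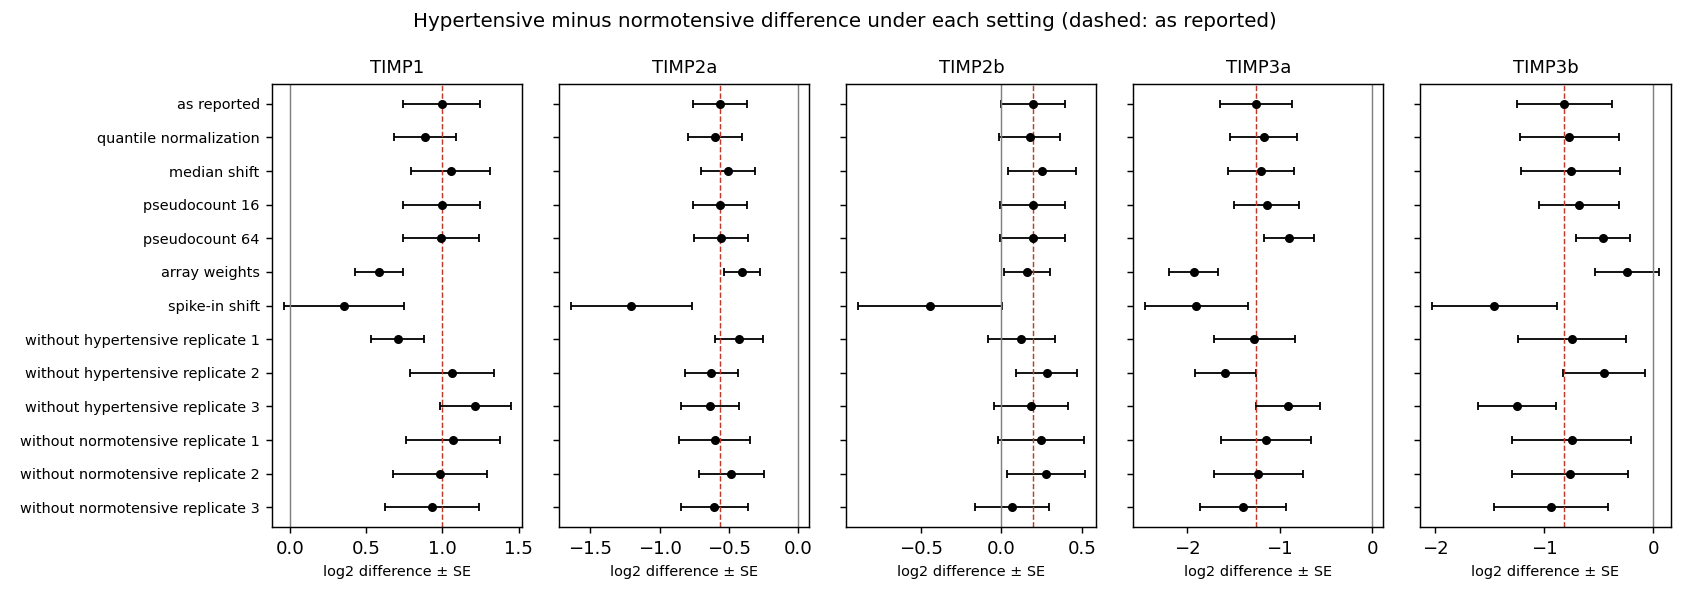
Log2 difference, hypertensive minus normotensive, with its SE (bars) for the 5 kept TIMP probe sets, as reported (top row and dashed line) and under other normalizations, pseudocounts, array weights, the spike-in shift and with each array left out. TIMP2b crossed 0 only with the spike-in shift, at -0.45, and the others kept their sign in every row.

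Relative to TIMP3, TIMP1 was higher on every hypertensive array. TIMP1 alone was higher, and TIMP2a and TIMP3a alone were lower, on every hypertensive array than on any normotensive one. The separation of the groups in the ratios of TIMP1 to TIMP2a and to TIMP3a follows from this and is no further result. The log2 ratio of TIMP1 to TIMP3a, less its normotensive mean, was 2.80, 1.45 and 2.51 on hypertensive replicates 1, 2 and 3, against -0.078, -0.073 and 0.15 on the normotensive ones. Its hypertensive mean was 2.25 ± 0.71 (SD, n = 3), an unequal change of 4.77 times, and the normotensive SD was 0.13. With the other kept TIMP3 probe set, TIMP3b, the mean was 1.81 ± 1.14, with 2.53, 2.41 and 0.50 on hypertensive replicates 1, 2 and 3. TIMP1 was also higher relative to TIMP2 on every hypertensive array, by 2.40, 1.30 and 0.97 against TIMP2a and by 1.23, 0.83 and 0.33 against TIMP2b. How TIMP2 stood to TIMP3 depended on the TIMP2 probe set. TIMP2a relative to TIMP3a overlapped between groups, at 0.39, 0.15 and 1.53 on the hypertensive arrays against -0.30, 0.11 and 0.20 on the normotensive ones, and so did TIMP2a relative to TIMP3b. TIMP2b was higher on every hypertensive array relative to TIMP3a, by 1.57, 0.62 and 2.17 against -0.13 to 0.11 on the normotensive ones. Relative to TIMP3b it was higher by 1.30, 1.57 and 0.17 on the hypertensive arrays, against -0.035 to 0.053 on the normotensive ones.

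**Figure D3:**
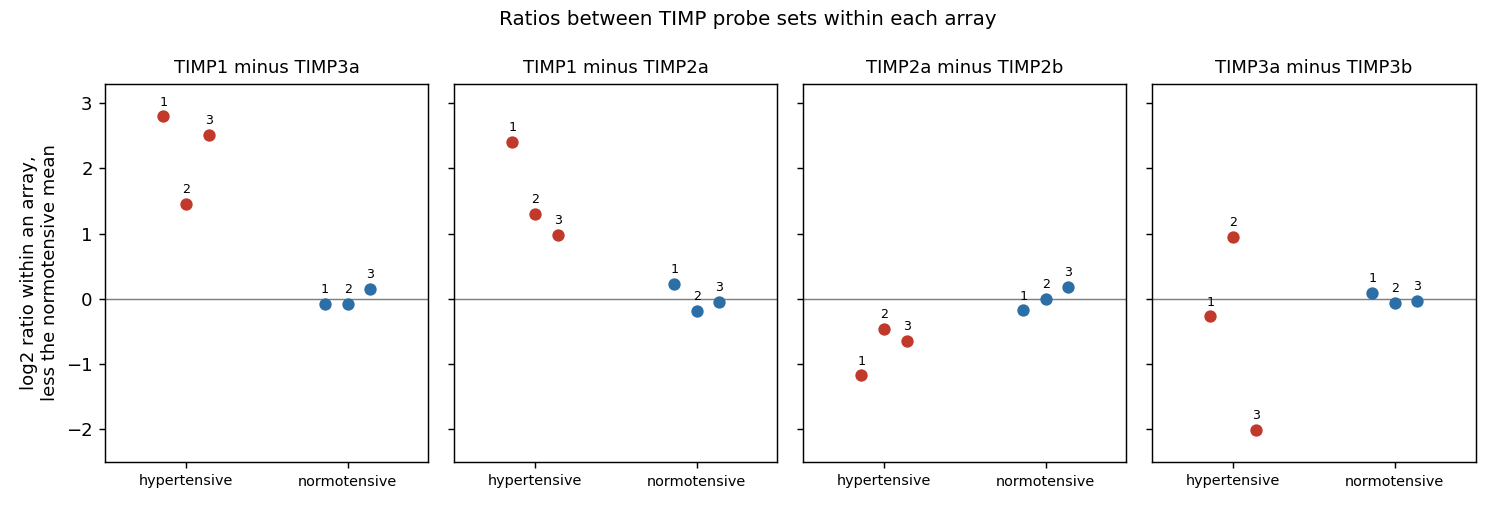
Log2 ratio between pairs of TIMP probe sets within each array, less its normotensive mean, on hypertensive (red, left) and normotensive (blue, right) arrays, with the replicate number beside each point. TIMP1 over TIMP3a was 1.45 to 2.80 on the hypertensive arrays and within 0.15 of 0 on the normotensive arrays, and the ratio of the TIMP3 probe sets spread from -2.01 to 0.95 on the hypertensive arrays. The separation of TIMP1 over TIMP3a and over TIMP2a follows from the separate groups of each probe set.

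A list of 16 genes whose products bind TIMPs or are classic targets of theirs was followed beside the inhibitors, and 8 of them were kept. By limma 0 of the 8 passed an adjusted p of 0.05 (adjusted p from 0.115 to 0.849), 7 had higher and 1 had lower means under hypertensive pressure, and 4 had an unadjusted p under 0.05, all of them higher, where 7.39% of kept probe sets were. Non-overlapping groups were seen in 5 of the 8, all higher, against 9.28% of the 5271 genes when each was read on its brightest kept probe set. MMP3 is in each of these counts of higher genes and gave the adjusted p of 0.115. It passed the filter only through its hypertensive signal, so it adds no support to them. The count of 7 higher and 1 lower became 5 and 3 with quantile normalization and 4 and 4 with the spike-in shift. Of all kept probe sets, 47.3% were higher as reported, 49.2% with quantile normalization and 13.6% with the spike-in shift. The collagenase MMP1 read 16323, 2967 and 7616 on hypertensive replicates 1, 2 and 3, against 807, 1790 and 777 on the normotensive ones. Stromelysin MMP3 read 14136, 797 and 3135 on the hypertensive arrays and 46.9, 27.2 and 23.1 on the normotensive arrays, where it was below the filter level throughout. Gelatinase MMP2, whose proenzyme TIMP2 helps to activate, read 9635, 7975 and 7580 on the hypertensive arrays, against 6059, 6682 and 4448 on the normotensive ones, a log2 difference of 0.56 (SE 0.21, adjusted p = 0.273, limma) that turned to -0.078 with the spike-in shift.

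MMP14, the membrane-bound enzyme that docks TIMP2 and MMP2, read 222, 187 and 225 on hypertensive replicates 1, 2 and 3, against 138, 166 and 103 on the normotensive ones (log2 difference 0.66, SE 0.30, adjusted p = 0.304, limma). ADAM17, the sheddase of TNF that TIMP3 inhibits, read 1194, 740 and 747 on the hypertensive arrays, against 480, 625 and 514 on the normotensive ones (log2 difference 0.70, SE 0.30, adjusted p = 0.291, limma), and its 2 further kept probe sets had the same sign. With the spike-in shift the differences of MMP14 and ADAM17 were 0.022 (SE 0.56) and 0.056 (SE 0.55). Gelatinase MMP9, whose proenzyme binds TIMP1, was close to the filter level, at 55.7 to 63.6 under hypertensive and 58.5 to 85.1 under normotensive pressure. The cell-surface proteins CD63, a receptor of TIMP1, and ITGB1, a subunit of the integrin that TIMP2 binds, had log2 differences of 0.084 (SE 0.18) and 0.058 (SE 0.14), which turned negative with quantile normalization, at -0.046 and -0.040, and with other settings. ADAM10 and KDR, the VEGF receptor that TIMP3 blocks, were below the filter level. The annotation of the RefSeq pig assembly Sscrofa11.1 places TIMP1 inside the synapsin gene SYN1, TIMP3 inside SYN3 and TIMP4 inside SYN2, and of these hosts SYN1 and SYN2 were on the array and below the filter level.

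Over all the lists of TIMP binding partners, MMPs, ADAM and ADAMTS proteases, the plasminogen system and other protease inhibitors, 25 genes besides the TIMPs were kept. Of these, 15 had higher and 10 lower means under hypertensive pressure, a median difference of 0.14 on the log2 scale against -0.068 for all 5271 genes, and 0 passed an adjusted p of 0.05 by limma. Of the 5271 genes, 45.0% were higher. With quantile normalization 12 of the 25 were higher and 13 lower, where 49.2% of kept probe sets were higher. With the spike-in shift 9 were higher and 16 lower, where 13.6% of kept probe sets were higher. At an unadjusted p under 0.05 there were 7 higher and 1 lower, where 7.39% of kept probe sets were higher and 9.53% lower. Groups did not overlap in 7 that were higher and 1 that was lower, against 9.28% and 12.6% of the 5271 genes. MMP3, which passed the filter only through its hypertensive signal, is again in each count of higher genes. The lists share genes, since the 5 MMPs kept and ADAM17 are also among the binding partners counted above. The binding partners with non-overlapping groups are likewise among the 7. Of the 5 MMPs, 4 were higher, and of 3 ADAM genes 1 was, ADAM17. ADAMTS1, which cleaves proteoglycans, read 9932, 2015 and 2516 on hypertensive replicates 1, 2 and 3, against 1114, 418 and 1064 on the normotensive ones. ADAMTS6, the other ADAMTS gene kept, had a log2 difference of -0.33 (SE 0.44), and without hypertensive replicate 1 it was 0.17. ADAM9 had one of -0.60 (SE 0.37). Among plasminogen system genes and other inhibitors, 7 were higher and 6 lower. The plasminogen activator PLAU read 5619, 2852 and 4554 on the hypertensive arrays, against 2528, 2195 and 2731 on the normotensive ones, while the serpin SERPINI1 read 80.1, 134 and 51.6 on the hypertensive arrays, against 230, 591 and 228 on the normotensive ones.

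**Figure D4:**
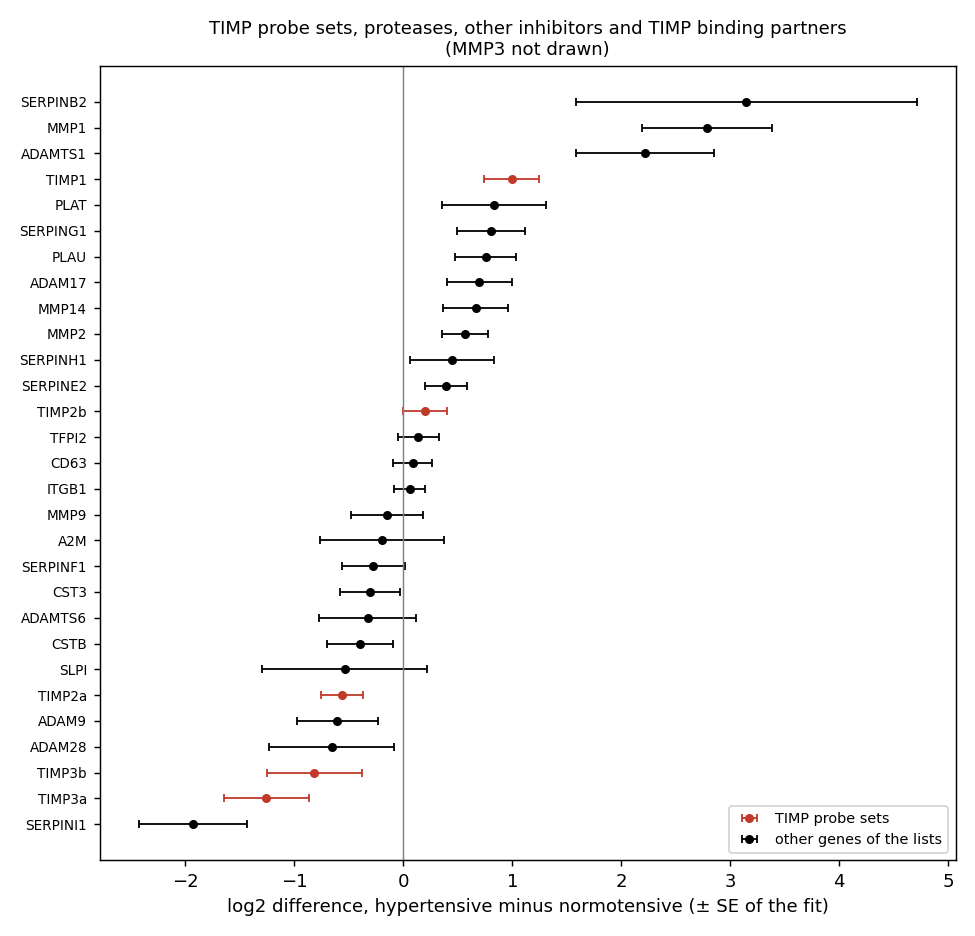
Log2 difference, hypertensive minus normotensive, with the SE of the fit (bars), for the 5 kept TIMP probe sets (red) and the other kept genes of the protease, inhibitor and binding partner lists (black), in order of the difference; MMP3 is left out because it was below the filter level on all normotensive arrays. TIMP1 stood at 1.00 among the higher genes, and TIMP3 at -1.26 and -0.82 and TIMP2a at -0.56 among the lower ones.

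Ratios of an enzyme to its inhibitor within an array differed in direction between pairs. The log2 ratio of MMP2 to TIMP2a, less its normotensive mean, was 1.60, 0.94 and 0.84 on hypertensive replicates 1, 2 and 3, and -0.26 to 0.18 on the normotensive ones. With TIMP2b it was 0.43, 0.47 and 0.20 on the hypertensive arrays, against -0.082 to 0.078 on the normotensive ones, so the groups did not overlap with either probe set. MMP14 over TIMP2 was higher on all hypertensive arrays too, with a mean of 1.23 ± 0.32 on TIMP2a and 0.47 ± 0.070 on TIMP2b (SD, n = 3), against normotensive SDs of 0.25 and 0.14. ADAM17 over TIMP3 was 2.38, 1.06 and 2.43 on hypertensive replicates 1, 2 and 3 with TIMP3a, and 2.11, 2.01 and 0.42 with TIMP3b, against normotensive values of at most 0.22. MMP1 over TIMP1 overlapped between groups, at 2.40, 0.65 and 2.32 on the hypertensive arrays against -0.51, 0.80 and -0.29 on the normotensive ones. MMP9 over TIMP1 was lower on all hypertensive arrays, at -1.84, -0.94 and -0.64, against -0.12 to 0.19 on the normotensive ones, with MMP9 near the filter level. For MMP2 and MMP14 over TIMP2a and ADAM17 over TIMP3a, the separation follows from the separate groups of each probe set and is no further result. These ratios are differences of signal on different probe sets and say nothing of the relative amounts of enzyme and inhibitor.

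The genes most like each inhibitor were sought among the 5270 other genes by the root mean square distance between log2 profiles, each less its own normotensive mean, over the 6 arrays. Closest to TIMP1 were N4BP1 (distance 0.13), the transcription factor STAT5A (0.13), RRP1B (0.14) and the innate immune receptor TLR2 (0.15). STAT5A read 983, 553 and 589 on hypertensive replicates 1, 2 and 3, against 362, 370 and 304 on the normotensive ones, the same rank of replicate 1 above the rest as in TIMP1. Closest to TIMP2a were PEBP1, an inhibitor of RAF kinase (0.056), the phosphatase ACP5 (0.080), DPCD (0.087) and BTBD7 (0.098). Closest to TIMP3a were NUDT14 (0.11), WFDC3 (0.15), the mitochondrial peptidase MIPEP (0.16) and the growth factor FGF2 (0.21). FGF2 read 90.0, 138 and 74.4 on hypertensive replicates 1, 2 and 3, against 239, 197 and 182 on the normotensive ones. These profiles are ranked on the same 6 arrays and carry the group difference with them.

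Markers of other cells and of RNA quality were read beside the inhibitors, and their part in the TIMP differences was not tested. Of 18 leukocyte markers 14 were on the array and 9 were kept, and their summed signal was 1264 to 4451 under hypertensive and 2837 to 6155 under normotensive pressure. Of these 3 had higher means (CORO1A, CD14 and TYROBP) and 6 lower means (PTPRC, CD163, AIF1, ITGB2, FCER1G and LAPTM5), with a median log2 difference of -0.74. CD14 had a mean of 43.1 under normotensive pressure and PTPRC one of 34.9 under hypertensive pressure, both below the filter level. Each passed the filter only through its brighter group, so neither adds support to the count on its side. The brightest, CD163, read 270, 1794 and 875 on hypertensive replicates 1, 2 and 3, against 1497, 2261 and 1294 on the normotensive ones. CD163 and CORO1A each had 1 further kept probe set, and in each gene it had the opposite sign. CD3E, CD2, CD79B, ITGAM and MARCO were below the filter level. Of 14 endothelial markers 12 were on the array and 6 were kept, with sums of 1988 to 3838 under hypertensive and 2474 to 3058 under normotensive pressure. Of these 1 was higher (SELP) and 5 were lower (PECAM1, TEK, ENG, ERG and ESAM), with a median log2 difference of -0.27. SELP read 2296, 784 and 368 on hypertensive replicates 1, 2 and 3, against 95.4, 245 and 90.6 on the normotensive ones. ERG read 899, 1019 and 973, against 1675, 1142 and 1780. The marker sums follow the brightest probe sets, such as SELP on hypertensive replicate 1. VWF, CDH5, TIE1, KDR, SELE and CLDN5 were below the filter level. All 10 kept interstitial markers had lower means under hypertensive pressure, where 2899 of the 5271 genes did. With the median shift, with array weights and in most fits with 1 array left out it was 9 of 10. Groups did not overlap in 2 of the 10, lower under hypertensive pressure, against 12.6% of the 5271 genes. The markers had a median log2 difference of -0.44 and sums of 72794 to 93123 under hypertensive and 101340 to 103524 under normotensive pressure. Signal at the 3′ end of GAPDH over that at its 5′ end, on control probe sets, was 2.91 to 6.04 under hypertensive and 2.11 to 7.52 under normotensive pressure, and for actin it was 52.5 to 81.7 under hypertensive and 41.1 to 109 under normotensive pressure. For the elongation factor EF1A it was 1.35 to 1.55 under hypertensive and 1.30 to 1.65 under normotensive pressure.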

How the data were processed

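Transcript levels were measured on the Affymetrix Porcine Genome Array, 1 array per sample, from 70 ng of total RNA amplified by repeated in vitro transcription, with 10 µg of labelled cRNA hybridised, per the labels' protocols. The authors deposited 1 linear signal intensity per probe set and array, made with GCOS and MAS5 per the submitters' processing notes, which name no version. Trimmed means near 500 on every array show a common scaling. Of 23999 non-control probe sets, 10069 had 1 gene symbol in the platform annotation, 198 had several and 13732 had none, and 9961 of those symbols matched a RefSeq gene. Intensities were taken to log2 without a pseudocount, and limma 3.58.1, run in R 4.3.3, set the hypertensive against the normotensive group (lmFit, eBayes with an intensity trend, 2-sided, Benjamini-Hochberg over 14399 kept probe sets, threshold 0.05). The fit was tested on simulated data with independent noise of equal SD in both groups. These arrays had unequal spread between groups, so that test does not bear on how the fit handles it. A gene was read on its brightest kept probe set. The number of arrays limits the precision, and an exact permutation test of 3 against 3 cannot go below p = 0.1.

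The members, lists and tests were chosen with earlier results of these data known. Named were every TIMP probe set, the kept binding partners, TIMP4, the synapsin genes, the 2 genes of smallest p in each other protease list, and the 4 genes of nearest profile to each TIMP gene. Alternatives were a filter at the 60th percentile or none, quantile normalization or a median shift, a pseudocount of 16 or 64, no intensity trend, array weights, the replicate number as a block, each array left out and, added later, a spike-in shift.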

Additional observations from a re-analysis of the deposited data

How the results depend on the processing

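Of 14399 kept probe sets, 0 passed the threshold as reported, 5639 (2431 higher, 3208 lower) with array weights and 1928 (103 higher, 1825 lower) with the spike-in shift. With 1 array left out the number ran from 0 to 3513 (24.4%), highest without hypertensive replicate 2. Of 28 kept genes of the protease, inhibitor and TIMP binding partner lists, the TIMPs included, 0 passed as reported. There were 13 with array weights, 7 with the spike-in shift and 0 to 10 with 1 array left out, again highest without hypertensive replicate 2. Each count is to be read beside that over all kept probe sets in the same setting. TIMP2a and TIMP3a are in the 13, the 7 and the 10, and TIMP1 is in the 13 and the 10. The TIMPs were chosen by these differences, so they add no support to the counts. MMP3, kept only through its hypertensive signal, passed with array weights, with the spike-in shift and without hypertensive replicate 2. The array weights were 0.195 for hypertensive replicate 2 and 6.96 for normotensive replicate 1, the lowest and highest given. TIMP1 was at 0.58 with array weights and 0.35 with the spike-in shift. With that shift TIMP2a was at -1.21, TIMP2b reversed to -0.45, TIMP3a was at -1.90 and TIMP3b at -1.46, while array weights put TIMP3a at -1.93 and TIMP3b at -0.24. With 1 array left out the differences ran from 0.71 to 1.22 for TIMP1, -0.64 to -0.43 and 0.065 to 0.28 for TIMP2, and -1.59 to -0.91 and -1.25 to -0.45 for TIMP3, and the log2 ratio of TIMP1 to TIMP3a from 1.98 to 2.65, where with TIMP3b in its place it was 1.81. Directions reversed for MMP2 (-0.078, spike-in shift), CD63 (-0.046 with quantile normalization, -0.19 with array weights, -0.56 with the spike-in shift, and -0.015 to 0.22 with 1 array left out), ITGB1 (-0.040, -0.0055 and -0.58 in the same order), MMP9 (-0.25 to 0.021 with 1 array left out) and ADAMTS6 (0.018 with array weights, and -0.58 to 0.17 with 1 array left out). The cause was not tested. Signals near the filter level, as in TIMP3, limit how far its folds can be read.

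Same-numbered arrays of the groups were not shown to be paired: deviations from group means correlated at 0.059, 0.072 and 0.23, although each array correlated best with its own number. With the replicate block 0 of 14399 kept probe sets passed, as without it.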

Other observations

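Among the 13 kept genes of the plasminogen system and other protease inhibitors, PLAT and SERPINB2 were picked after their values were seen, for their signal on hypertensive replicate 1. PLAU, SERPINE2, SERPING1, A2M and TFPI2 were also highest on replicate 1 among the hypertensive arrays. SERPINF1, SERPINH1, SERPINI1, CST3, CSTB and SLPI were not. SLPI read 1002, 163 and 1327 on hypertensive replicates 1, 2 and 3, against 686, 1541 and 628 on the normotensive ones. The plasminogen activator PLAT read 24557, 5726 and 7627 on hypertensive replicates 1, 2 and 3, against 6469, 5865 and 5023 on the normotensive ones. The activator inhibitor SERPINB2 read 15877, 126 and 1786 on the hypertensive arrays, against 132, 577 and 67.6 on the normotensive ones. TIMP1, MMP1, MMP3 and ADAMTS1 were likewise highest on that array, while TIMP3 was lowest on replicate 3 with one kept probe set and on replicate 2 with the other.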
